A study of Homo sapiens with 32 samples.

Results

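Peaks of N6-methyladenosine (m6A) in pseudogenes of A375 cells are described here. A peak was taken when its summit lay within the RefSeq span of a gene with the biotype transcribed_pseudogene or pseudogene, and within no gene of any other biotype. The rule took 2968 of the 180114 peaks in 4 lists, or 1.65%. A375 is an established human melanoma line with a BRAF mutation. The m6A-marked RNA fragments were pulled down by antibody and sequenced (MeRIP-seq) from chromatin-associated RNA depleted of ribosomal RNA. The peaks come from 2 libraries of cells with a hairpin RNA against METTL3 (shMETTL3, labelled METTL3 knockdown) and 2 libraries of cells with a control hairpin RNA (shControl, labelled WT). All 4 were the same line with the same antibody kit, and neither the hairpin sequences nor the residual METTL3 level is given in the labels. Of the 32 samples in the series, the input, dCas13b-FTO, second knockdown and HEK293T libraries are not analysed here.

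Pseudogenes are copies of genes that have lost the ability to make the original protein. Processed copies arose from spliced messenger RNA put back into the genome, and unprocessed copies arose by duplication of a stretch of DNA. Some are transcribed, and RefSeq gives these a biotype of their own. METTL3 is the catalytic subunit of the complex that writes most m6A on RNA made by RNA polymerase II, mainly at the DRACH sequence, of which GGACT is a common form. METTL16 is a separate methyltransferase whose known targets include U6 small nuclear RNA.

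Sequences at 5 of these loci are shown as examples of peaks shared by all lists and of peaks in one group's lists. The 5 include all 4 stretches that held GGACT, so they do not show how common it is. They were read from the RefSeq table of promoter windows (GRCh38.p14), because those windows of neighbouring coding and lncRNA genes run across the peaks, and they are given on the strand of the peak. Each is the stretch shared by the peak locus and the window, with every GGACT and GAACT in capitals. The summit lay inside the stretch in the first and, for the strongest shMETTL3 peaks, in the second. It lay outside the stretch in the others. The first is a copy of the U6 small nuclear RNA gene, at chr4:186501073-186501308 on the plus strand, and had a peak in all 4 lists. The second, from PDE4DIPP2, a copy of the gene of the centrosome and Golgi protein myomegalin, lies at chr1:120558435-120558626 on the minus strand and also had a peak in all 4 lists. The third, from GUSBP11, a copy of the beta-glucuronidase gene, lies at chr22:23690763-23691062 on the minus strand and was in all 4 lists. The fourth, from NUS1P2, a copy of a dolichol synthesis gene, lies at chr13:22916372-22916619 on the plus strand and was in both shMETTL3 lists and neither shControl list. The fifth, from ZNF271P, a zinc finger pseudogene, lies at chr18:35290371-35290479 on the plus strand and was in both shControl lists and neither shMETTL3 list.
RNU6-1055P: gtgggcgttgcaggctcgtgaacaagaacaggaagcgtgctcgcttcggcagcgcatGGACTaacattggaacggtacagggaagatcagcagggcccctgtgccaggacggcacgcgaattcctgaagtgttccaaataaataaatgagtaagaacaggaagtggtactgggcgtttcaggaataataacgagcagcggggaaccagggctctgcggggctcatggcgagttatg
PDE4DIPP2: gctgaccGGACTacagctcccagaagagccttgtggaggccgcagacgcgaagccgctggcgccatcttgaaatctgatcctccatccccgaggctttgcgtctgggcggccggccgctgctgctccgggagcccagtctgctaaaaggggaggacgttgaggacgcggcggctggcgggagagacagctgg
GUSBP11: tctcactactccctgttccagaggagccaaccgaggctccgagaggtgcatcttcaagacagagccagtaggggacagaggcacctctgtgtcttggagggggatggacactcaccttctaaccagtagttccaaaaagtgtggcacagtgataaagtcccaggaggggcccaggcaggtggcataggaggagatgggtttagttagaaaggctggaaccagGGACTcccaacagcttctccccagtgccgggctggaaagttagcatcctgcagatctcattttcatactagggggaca
NUS1P2: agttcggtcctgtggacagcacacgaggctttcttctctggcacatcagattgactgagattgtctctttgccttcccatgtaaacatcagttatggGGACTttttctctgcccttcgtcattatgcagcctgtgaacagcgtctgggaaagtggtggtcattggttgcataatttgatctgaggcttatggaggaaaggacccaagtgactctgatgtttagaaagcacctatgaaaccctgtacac
ZNF271P: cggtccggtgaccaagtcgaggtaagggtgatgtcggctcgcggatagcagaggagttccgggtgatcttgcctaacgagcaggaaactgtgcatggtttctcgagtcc

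The enrichment over background that the peak caller gave at the U6 copy, called fold from here on, was 3.51 and 3.63 in the shMETTL3 libraries and 3.35 and 3.33 in the shControl libraries. The PDE4DIPP2 locus joins several peaks, and its highest folds were 6.92 and 5.73 in the shMETTL3 libraries and 6.30 and 5.25 in the shControl libraries. These belong to different peaks. The shMETTL3 values have summits 88.9 kb from the lower end of the span, inside the stretch shown. The shControl values have summits at 87.8 kb, outside the stretch, and the shControl peaks at 88.9 kb had folds of 2.84 and 3.67. The GUSBP11 locus had folds of 5.97 and 5.74 in the shMETTL3 libraries and 5.92 and 6.20 in the shControl libraries. Folds are the peak caller's values for each list and are given here as a description, since their scale may differ between lists. NUS1P2 had folds of 3.97 and 4.04 in the shMETTL3 libraries and no peak in either shControl library. ZNF271P had no peak in either shMETTL3 library and folds of 4.97 and 5.30 in the shControl libraries.

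Promoter windows covered stretches of 15 of the loci in pseudogenes. GGACT stood in 4 of these stretches, all of them shown above. Read as whole windows of 300 bases on the strand of the peak, 5 of 15 held GGACT, beside 25.2% of all 34943 windows on the gene's strand and 25.4% on the other. GAACT stood in 1 of 15 windows, beside 20.8% and 20.4% of all windows. These counts describe the letters in the windows and do not locate the methylated base.

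The number of peaks in pseudogenes was 723 and 709 in the shMETTL3 libraries, against 747 and 789 in the shControl libraries. The groups did not overlap, with means of 716 ± 9.90 in shMETTL3 and 768 ± 29.7 in shControl (SD, n = 2 each), a difference of -52 peaks. The exact two-sided permutation test over libraries gave p = 0.333, which is the smallest value that 2 against 2 libraries allow. The whole lists also differed in length, with 44108 and 42969 peaks in the shMETTL3 lists and 45345 and 47692 in the shControl lists. As a share of the list, pseudogenes held 1.64% and 1.65% in shMETTL3 and 1.65% and 1.65% in shControl (exact permutation p = 0.667). The sequence covered by these peaks came to 292 and 296 kb in shMETTL3, against 293 and 311 kb in shControl (exact permutation p = 0.667). The number of peaks was lower in the knockdown lists by about as much as the lists were shorter, and with lists cut to equal length the difference was 3.5 peaks in the other direction.

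**Figure D1:**
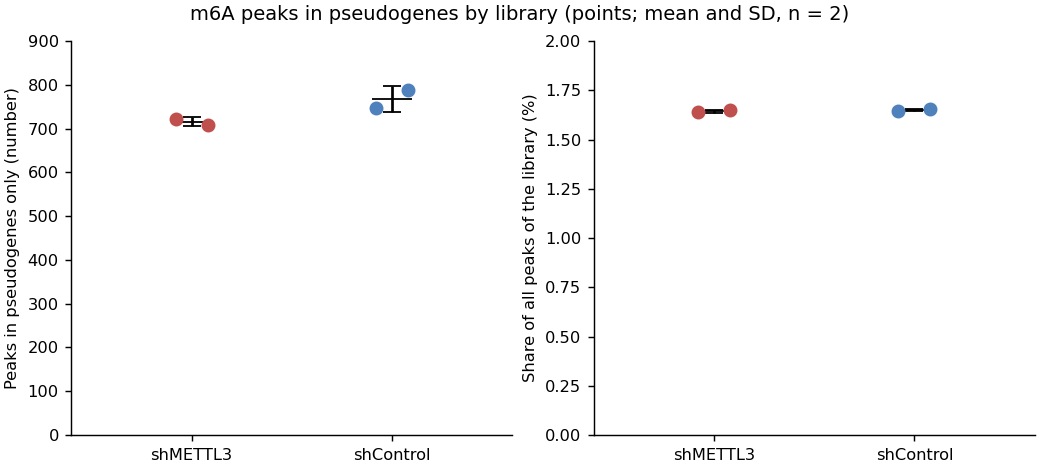
Number of m6A peaks in pseudogenes (left) and their share of all peaks of the library in percent (right), with a point for each shMETTL3 and shControl library and bars for the mean and SD (n = 2 each). The 2 shMETTL3 libraries held 723 and 709 peaks and the 2 shControl libraries 747 and 789, while all 4 shares lay between 1.64% and 1.65%.

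The knockdown was looked for at METTL3 itself. The gene held 6 loci, of which 4 were in both shMETTL3 lists, 4 in both shControl lists and 3 in all 4. Peak lists do not measure RNA amount, so they do not check the knockdown, and fewer molecules of an RNA cannot be told apart here from fewer methylated ones. In the marker lists, 5 of 5 markers of dedifferentiated melanoma cells and 1 of 7 melanocyte markers had a peak (MITF). Of the markers of other cell types, 1 of 5 for keratinocytes, 1 of 5 for fibroblasts and 0 of 5 for leukocytes had a peak in any list. Nothing in the labels says that replicates were separate cultures, so p-values measure the spread between these libraries, which may be technical.

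Peaks in pseudogenes ranked somewhat above the middle of their own lists by fold. Their median fold was 4.17 and 4.18 in shMETTL3 and 3.94 and 3.78 in shControl. Placed on the scale of ranks within each list, from 0 for the lowest fold to 100 for the highest, their median stood at 55.8 and 56.2 in shMETTL3 and at 52.8 and 54.0 in shControl. The means were 56.0 ± 0.260 and 53.4 ± 0.888 (SD, n = 2 each), a difference of 2.61 rank points (exact permutation p = 0.333, the smallest possible). Restricted to folds of 4 or more, this difference turned to -1.05. Against peaks in protein-coding genes of the same list, the pseudogene median was higher by 6.39 and 6.74 rank points in shMETTL3 and by 2.82 and 4.09 in shControl. Against peaks in lncRNA genes it was higher by 5.70 and 6.55 in shMETTL3 and by 5.08 and 5.93 in shControl. Both differences had the same sign in 4 of 4 libraries, for which the exact two-sided sign-flip permutation test gives p = 0.125, its smallest value. The median width of peaks in pseudogenes was 267 and 271 bp in shMETTL3, against 259 and 258 bp in shControl (difference of 10.5 bp, exact permutation p = 0.333). Peaks in protein-coding genes went the same way, with 264 and 265 bp in shMETTL3 and 250 and 253 bp in shControl. The difference in width is therefore not particular to pseudogenes.

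Transcribed pseudogenes held most of the peaks. In the shMETTL3 lists 537 and 530 peaks lay in a transcribed_pseudogene, against 561 and 606 in the shControl lists, and 186 and 179 against 186 and 183 lay in the plain pseudogene biotype. Of the 1265 genes of the transcribed biotype, 240 (19.0%) had a peak under the rule in any list, beside 202 of 15580 (1.30%) of the plain biotype. Pseudogenes whose only peaks lie in another gene too are counted here as without a peak. By the locus placed in them, the share was 53.5% of protein-coding and 12.9% of lncRNA genes. The shares of protein-coding and lncRNA genes include loci that lie in another gene as well, so they are not the same measure. The spans differ in length, with a median of 9008 bp for transcribed pseudogenes, 659 bp for the plain biotype, 24093 bp for protein-coding and 9038 bp for lncRNA genes. Per Mb of pseudogene sequence outside other genes there were 17.6 and 17.3 peaks in shMETTL3 and 18.2 and 19.2 in shControl. Sequence of protein-coding genes alone held 28.4 to 31.5 peaks per Mb over the 4 libraries, and that of lncRNA genes alone 7.21 to 8.03.

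Many peaks with a summit in a pseudogene were set aside because another gene lay there too. Peaks in any pseudogene numbered 1352 and 1304 in shMETTL3 and 1299 and 1367 in shControl, of which 53.5% and 54.4% in shMETTL3 and 57.5% and 57.7% in shControl were in pseudogenes alone. Of those kept, 484 and 477 in shMETTL3 and 482 and 496 in shControl lay 10 kb or more from any gene of another biotype. The biotype is RefSeq's. ORAI1, the pore subunit of the store-operated calcium channel, carries the transcribed_pseudogene biotype in this table and was therefore included.

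Overlapping peaks of the 4 lists on one strand (1 bp or more in common) were joined to loci, which gave 1105 loci in 442 pseudogenes among 66409 loci in all. A single locus was found in 219 pseudogenes, 2 in 94, 3 to 9 in 109 and 10 or more in 20. Those 20 held 283 of the loci. The loci were uneven over the genome, with 106 on chromosome 9, 102 on 15 and 100 on 7. As a share of all loci of a chromosome, and leaving out Y with its 2 of 11, pseudogenes took most on chromosome 21 (4.44%) and 15 (4.16%) and least on 11 (0.717%). In pseudogenes with 3 or more loci, the peaks mostly kept to one strand, in 110 of 129 (85.3%, 95% Wilson interval 78.1 to 90.4%), beside 80.3% of 6811 protein-coding genes. These shares are not the same measure. Protein-coding genes with a locus held a median of 4 loci, against 2 in pseudogenes, and include loci that lie in another gene too. Replicate lists shared more loci than lists of different groups, with 0.694 of the joint loci shared between the shMETTL3 lists, 0.700 between the shControl lists and 0.494 to 0.508 across groups. All loci had nearly the same values, 0.676 between the shMETTL3 lists, 0.711 between the shControl lists and 0.495 to 0.498 across groups.

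Most loci were not specific to a group. Of the 1105 loci, 404 (36.6%) had a peak in all 4 lists, beside 35.7% of all loci, and 291 were in 1 list. Knockdown-only loci, with a peak in both shMETTL3 lists and neither shControl list, numbered 101 of the 557 in both shMETTL3 lists, or 18.1% (95% Wilson interval 15.2 to 21.5%), beside 18.9% of all loci. Control-only loci, the reverse case, numbered 146 of the 608 in both shControl lists, or 24.0% (20.8 to 27.6%), beside 22.6% of all loci. Both shares lay near those of all loci. LncRNA genes had 19.3% and 24.8%, protein-coding genes 18.5% and 21.9%, and loci outside genes 22.4% and 29.2%, for knockdown-only and control-only loci in that order. These intervals cover counting error only, and no p-value was computed over loci, which are not replicates. The counts rest on both replicates having the peak: without shControl replicate 1 the control-only count was 243, and the knockdown-only count was 177 without shMETTL3 replicate 1 and 171 without shMETTL3 replicate 2.

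**Figure D2:**
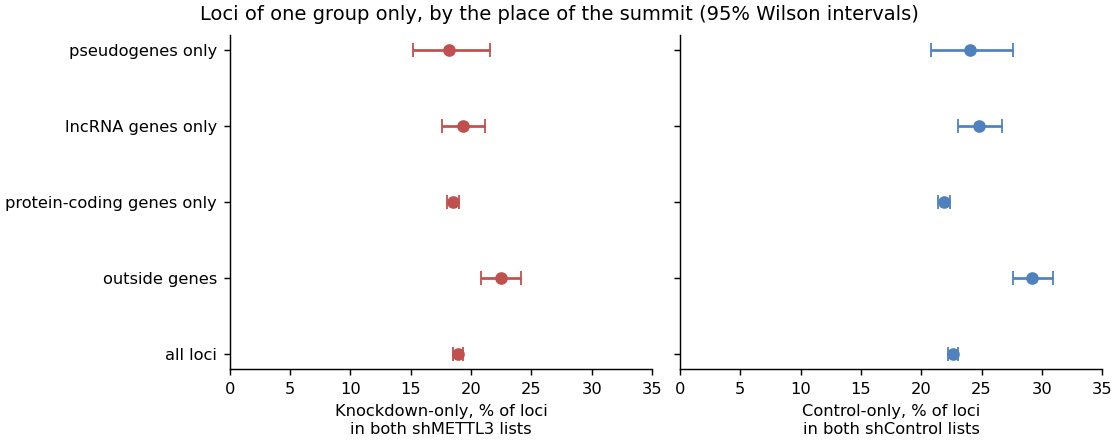
Knockdown-only loci as a percent of loci in both shMETTL3 lists (left) and control-only loci as a percent of loci in both shControl lists (right), by where the summit lies; points are shares and bars are 95% Wilson intervals. Pseudogenes stand at 18.1% and 24.0%, with intervals that include the values of all loci, 18.9% and 22.6%.

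The shares varied somewhat between kinds of pseudogene locus. Transcribed pseudogenes had 18.5% knockdown-only and 24.8% control-only loci, and the plain biotype 17.1% and 21.7%. Loci 10 kb or more from other genes had 17.9% and 21.5%, and the nearer ones 18.5% and 28.3%. The control-only interval of the nearer loci, 22.8 to 34.5%, lay just above the 22.6% of all loci and overlapped that of the farther ones, 17.6 to 25.9%. Loci in all 4 lists had higher median folds than those of one group in each list. They were also wider, but a locus is the joined length of its peaks, so one built from more lists tends to be longer. Their median width was 459.5 bp, against 283 bp for knockdown-only and 266 bp for control-only loci, and their median fold was 4.81 and 4.91 in shMETTL3 and 4.50 and 4.47 in shControl. Knockdown-only loci had median folds of 3.97 and 3.88 in the shMETTL3 lists, and control-only loci 3.63 and 3.61 in the shControl lists.

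**Figure D3:**
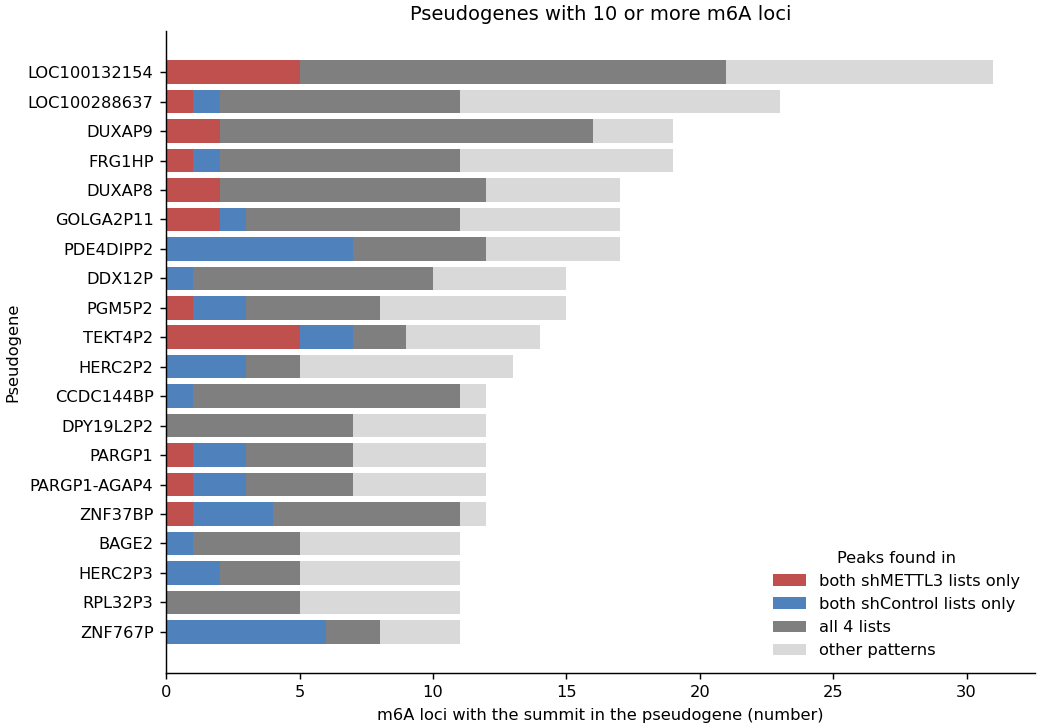
Number of m6A loci in the 20 pseudogenes with 10 or more, divided by the lists that held the peak. DUXAP9 and DUXAP8 had mostly loci of all 4 lists, TEKT4P2 had 5 knockdown-only loci, and PDE4DIPP2 and ZNF767P had 7 and 6 control-only loci. Over all loci, 18.9% of those in both shMETTL3 lists were knockdown-only and 22.6% of those in both shControl lists control-only.

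The pseudogenes with most loci were transcribed ones with long spans, from 15983 bp in GOLGA2P11 to 195809 bp in PDE4DIPP2. LOC100132154 on chromosome 9, with no assigned name, led with 28 and 26 loci in the shMETTL3 lists and 20 and 20 in the shControl lists, of 31 in all. Of these, 16 were in all 4 lists, beside 35.7% of all loci, 5 were knockdown-only and 0 were control-only. DUXAP9 and DUXAP8 are transcribed copies of the homeobox gene DUXA. DUXAP9, on chromosome 14, had 17 and 18 loci in shMETTL3 and 14 and 16 in shControl, and DUXAP8, on chromosome 22, had 15 and 15 in shMETTL3 and 14 and 11 in shControl. Over both, 24 of 36 loci were in all 4 lists. Of their 30 loci in both shMETTL3 lists 4 were knockdown-only, beside 18.9% of all loci. Of their 25 in both shControl lists 0 were control-only, beside 22.6% of all loci. DUXA itself had 0 loci. GOLGA2P11, a copy of the Golgi matrix protein gene GOLGA2, had 11 and 13 loci in shMETTL3 and 10 and 13 in shControl. FRG1HP and PGM5P2, which overlap on chromosome 9 and share 9 loci, had 15 and 14 against 14 and 13, and 11 and 9 against 11 and 11. CCDC144BP, a copy of a coiled-coil protein gene, had 10 of 12 loci in all 4 lists, beside 35.7% of all loci. DDX12P, a copy from the DNA helicase family of DDX11, had 9 of 15.

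Loci found in all 4 lists included some of the highest folds. The top-ranked was a 475 bp locus in SNX19P1, a sorting nexin copy, at chr21:13526601-13527075 on the plus strand. Its folds were 13.0 and 13.0 in shMETTL3 and 9.74 and 9.26 in shControl, above at least 98.8% of the peaks of each list. A 2056 bp locus in the zinc finger pseudogene ZNF37BP, at chr10:42519089-42521144 on the minus strand, had folds of 9.99 and 10.3 in shMETTL3 and 10.1 and 9.78 in shControl. TPMTP1, a copy of the thiopurine methyltransferase gene, had a locus of 1339 bp with folds of 10.5 and 9.71 in shMETTL3 and 9.60 and 9.39 in shControl. Single libraries could stand apart: in CCDC144BP the top locus had folds of 11.6 and 12.8 in shMETTL3 and 15.7 and 8.37 in shControl. The next in rank lay in SOWAHCP1 on chromosome Y, USP32P1, FAM86FP and DDX12P. In USP32P1, a copy of a ubiquitin-specific protease gene, the folds were 11.3 and 11.1 in shMETTL3 and 8.30 and 12.7 in shControl.

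Related copies could show the same layout of peaks. The 4 copies of NEK2, a centrosomal kinase gene, were picked out after their values were seen. Each had 2 loci on the minus strand, all 8 of them in all 4 lists. The starts of the neighbouring loci were 701 bp apart in NEK2P1, 800 in NEK2P2, 894 in NEK2P3 and 892 in NEK2P4, on chromosomes 14, 22, 14 and 2. NEK2 itself had 5 loci, of which 5 were in both shMETTL3 lists and 3 in all 4. In RPL32P3, a copy of a ribosomal protein gene, 4 wide loci of 1610, 1381, 1528 and 1585 bp followed each other on the minus strand with starts 2951, 2588 and 2843 bp apart, all 4 present in all lists. The first of these, at chr3:129383932-129385541, had folds of 8.17 and 6.47 in shMETTL3 and 3.79 and 5.49 in shControl. The sources used here do not say how reads that match several copies were placed, so near-identical copies may share or exchange reads.

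**Figure D4:**
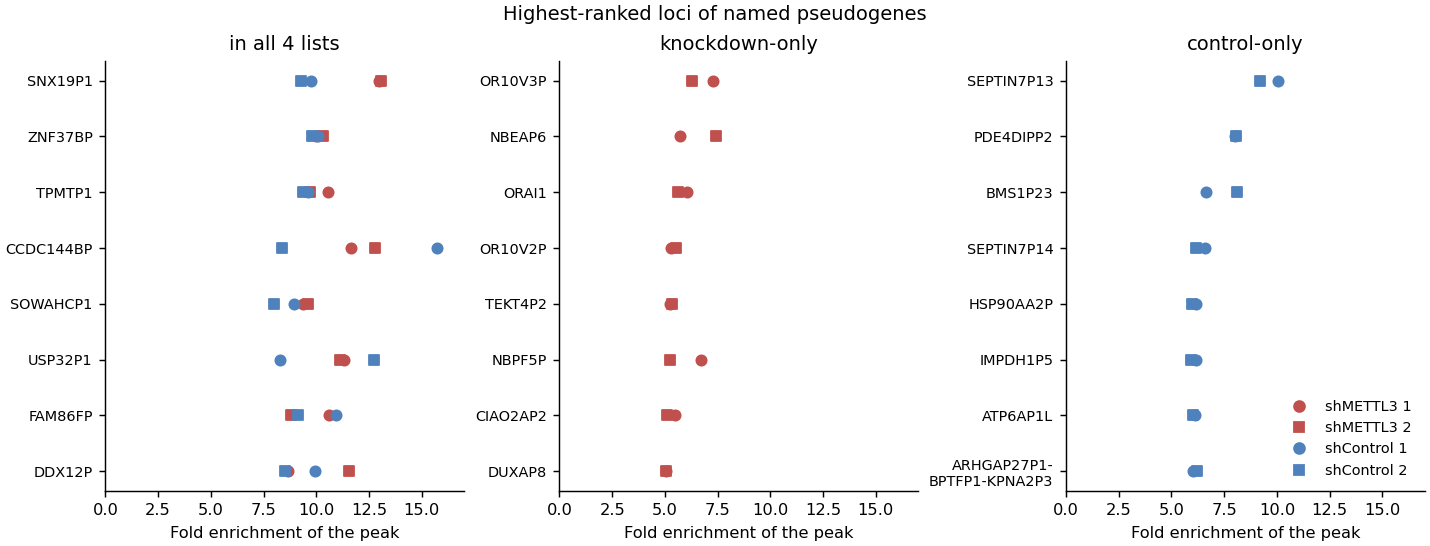
Fold enrichment of the highest-ranked locus of 8 named pseudogenes in each class, for loci in all 4 lists (left), knockdown-only loci (middle) and control-only loci (right); points are libraries. SEPTIN7P13 led the control-only loci with folds of 10.04 and 9.18, and OR10V3P the knockdown-only loci with 7.27 and 6.29.

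The highest-ranked knockdown-only locus lay in an olfactory receptor pseudogene of chromosome 11, OR10V3P, with others of the same run further down. OR10V3P, at chr11:59741377-59742452 on the plus strand, had folds of 7.27 and 6.29 in shMETTL3 and no peak in shControl. OR10V2P, at chr11:59749004-59749765, had folds of 5.29 and 5.52 in shMETTL3 and no peak in shControl. Both loci of OR10Y1P were knockdown-only as well, with folds of 2.54 and 3.39 at the first and 1.55 and 2.30 at the second in shMETTL3. Within the 21379 bp from OR10Y1P to OR10V2P there were 7 loci in all, each on the plus strand. In the shMETTL3 lists 7 and 7 of them had a peak, against 0 and 1 in the shControl lists, and 3 of the 7 lay between the pseudogenes. Olfactory receptors are odour receptors of the nose, and STX3, a membrane fusion gene, is the next gene above OR10V2P in RefSeq. These loci are neighbours on one strand and do not count as independent changes.

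The other leading knockdown-only loci were scattered. One shared by NBEAP6 and TOMM40P1 on chromosome 14 had folds of 5.71 and 7.44 in shMETTL3 and no peak in shControl. The ORAI1 locus, at chr12:121641128-121641875 on the plus strand, had folds of 6.05 and 5.62 in shMETTL3 and no peak in shControl. TEKT4P2, a copy of a gene for a protein of cilia and flagella, had 9 and 9 loci in shMETTL3 and 7 and 6 in shControl. Of its 14 loci, 9 were in both shMETTL3 lists, 5 of them knockdown-only, beside 18.9% of all loci. In both shControl lists were 4, of which 2 were control-only, beside 22.6% of all loci. TEKT4P2 thus held loci of both kinds, as did 9 of the 442 pseudogenes. NBPF5P, CIAO2AP2 and DUXAP8 completed the top 8, with the lower of the shMETTL3 folds between 5.05 and 5.25.

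Some pseudogenes were covered more fully in the knockdown lists, and 3 of these were picked out after their values were seen. C10orf88B had peaks at 7 and 6 loci in shMETTL3 and at 1 and 1 in shControl. Its 4 knockdown-only loci lay in a row beside a locus of all 4 lists, and had folds of 3.02 to 4.50 in shMETTL3. ALOX12P2, a copy of a lipoxygenase gene, had 6 and 6 loci in shMETTL3 and 2 and 2 in shControl, where a pair of wide loci was present in all 4 lists. AACSP1, a copy of the acetoacetyl-CoA synthetase gene, had 5 and 7 loci in shMETTL3 and 2 and 2 in shControl. Of its 5 loci in both shMETTL3 lists 3 were knockdown-only, as were 4 of 6 in ALOX12P2, beside 18.9% of all loci. The parent AACS had 3 loci in both shMETTL3 lists, 2 of them knockdown-only, and 0 in both shControl lists. ALOX12 had 1 locus, in both lists of neither group. Exchange of reads with parents was not tested.

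The highest-ranked control-only locus lay in a copy of SEPTIN7, a filament-forming GTPase gene of the cytoskeleton, and the 6 other control-only loci of SEPTIN7 copies ranked lower. The top one, a 1965 bp locus of SEPTIN7P13 at chr1:224011681-224013645 on the plus strand, had no peak in shMETTL3 and folds of 10.04 and 9.18 in shControl, above at least 98.9% of the peaks of each shControl list. SEPTIN7P13 had 0 and 0 loci in shMETTL3 and 4 and 4 in shControl, SEPTIN7P2 0 and 0 against 2 and 3, and SEPTIN7P14 2 and 1 against 4 and 4. SEPTIN7P11 had 1 locus, present in all 4 lists. Over the 4 copies, 7 of the 10 loci in both shControl lists were control-only (95% Wilson interval 39.7 to 89.2%), beside 22.6% of all loci, and 0 of the 2 in both shMETTL3 lists were knockdown-only, beside 18.9%. SEPTIN7 itself did not have this pattern: 0 of its 3 loci in both shControl lists were control-only and 2 of its 5 in both shMETTL3 lists were knockdown-only. The difference between copies and gene was not tested. Some of these loci are close neighbours on one strand, such as chr4:119485432-119486036 and chr4:119486161-119486928 in SEPTIN7P14. They do not count as independent changes, and the interval does not allow for this. Septins were among several families listed, and the lists were made with earlier results of these data known, so the interval is a description.

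Copies of other genes held several control-only loci each. PDE4DIPP2 had 6 and 6 loci in shMETTL3 and 16 and 13 in shControl, and 7 of its 17 loci were control-only. The strongest of these, 224 bp at chr1:120531933-120532156 on the minus strand, had folds of 8.002 and 8.07 in shControl and no peak in shMETTL3. PDE4DIPP2 also kept 5 loci in all 4 lists, among them the one whose sequence is given above. ZNF767P, a zinc finger pseudogene, had 3 and 3 loci in shMETTL3 and 10 and 11 in shControl, with 6 control-only. HERC2P2, a copy of a ubiquitin ligase gene, had 3 and 2 loci in shMETTL3 and 7 and 10 in shControl, with 3 control-only. BMS1P23, a copy of a ribosome assembly gene, had 3 control-only loci, the strongest with folds of 6.62 and 8.11 in shControl. HSP90AA2P and IMPDH1P5, copies of a chaperone gene and of an enzyme gene of guanine nucleotide synthesis, each had a control-only locus with folds of 6.17 in shControl replicate 1 and of 5.98 and 5.92 in replicate 2. A neighbouring HSP90AA2P locus on the same strand had folds of 7.13 in shMETTL3 replicate 1 and 3.91 in shControl replicate 1. In PDE4DIPP2, ZNF767P and HERC2P2 the numbers of loci in the groups did not overlap. This is partly built in, since they are given here for their control-only loci, and how many pseudogenes have such a split was not counted. Of the loci in both shControl lists, 7 of 13 in PDE4DIPP2 and 3 of 5 in HERC2P2 were control-only, beside 22.6% of all loci.

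**Figure D5:**
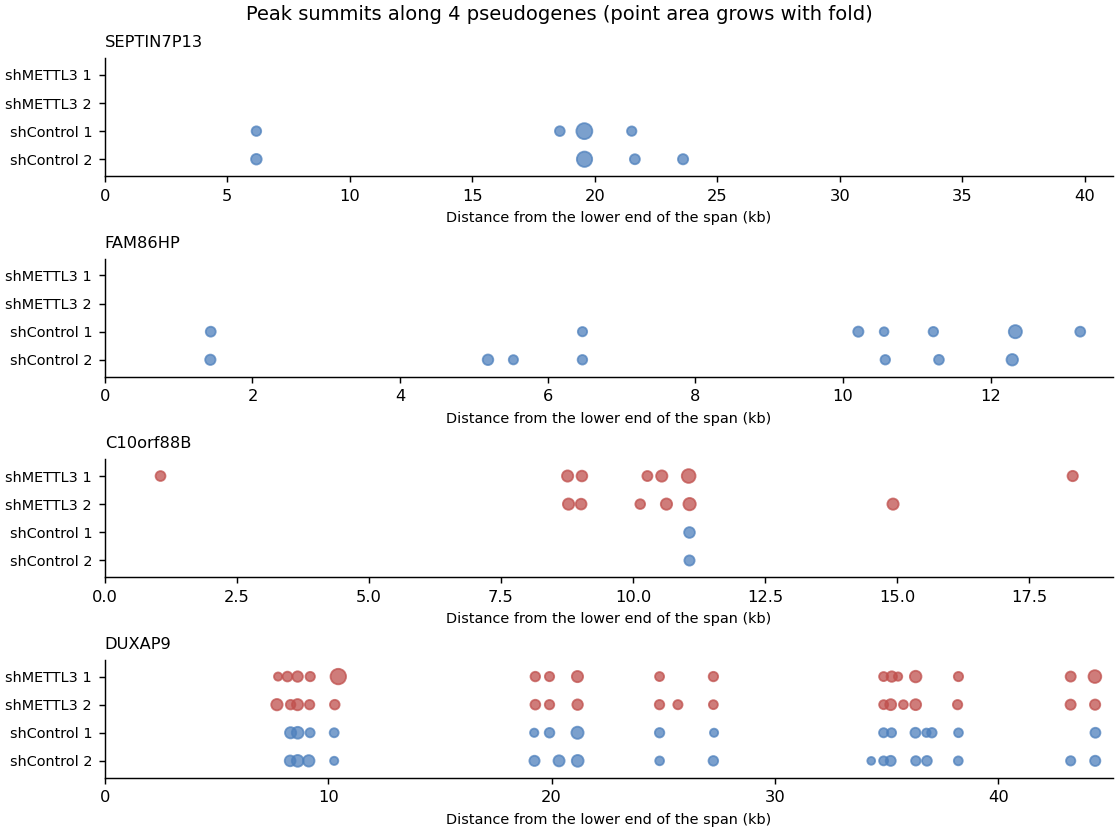
Peak summits along SEPTIN7P13, FAM86HP, C10orf88B and DUXAP9, by distance in kb from the lower end of the RefSeq span, with a row for each shMETTL3 and shControl library; the area of a point grows with the fold. SEPTIN7P13 and FAM86HP have summits in the shControl rows and none in the shMETTL3 rows, C10orf88B has 7 and 6 loci in shMETTL3 and 1 and 1 in shControl, and DUXAP9 has summits in all rows.

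At the level of whole pseudogenes, 41 were gained and 50 were lost. Gained means that every locus found in both shMETTL3 lists was knockdown-only, and lost the reverse for shControl. The 41 gained were 13.4% of the 307 pseudogenes with a locus in both shMETTL3 lists (95% Wilson interval 9.999 to 17.6%), beside 10.1% of all genes. The 50 lost were 16.1% of 310 (12.5 to 20.6%), beside 9.46% of all genes. For all genes, unlike for pseudogenes, loci were counted also where genes of different biotypes overlap. Among genes with 1 or 2 loci, 19.5% of pseudogenes and 22.2% of protein-coding genes were gained, and 19.6% and 18.2% were lost. Of those gained, 34 rested on 1 locus, and of those lost 36. No peak under the rule was found in the shControl lists for 36 of the gained, and none in the shMETTL3 lists for 46 of the lost. Without shMETTL3 replicate 1, 62 pseudogenes were gained.

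The lost pseudogene with most loci was FAM86HP, a copy from the FAM86 family of methyltransferase genes, with 0 and 0 loci in shMETTL3 and 7 and 7 in shControl. Its 5 control-only loci lay on both strands, the strongest at chr3:130109809-130110352 on the minus strand with folds of 6.45 and 4.67 in shControl. INTS4P1, a copy of an Integrator complex gene, had 0 and 0 loci in shMETTL3 and 3 and 3 in shControl. SDHAP1, a copy of a succinate dehydrogenase gene, met the rule with 2 control-only loci but still had peaks in the knockdown lists, with 3 and 2 loci in shMETTL3 and 2 and 6 in shControl. Among the gained, CDK5RAP3P1 and ANKRD20A5P each had 2 and 2 loci in shMETTL3 and 0 and 0 in shControl, and PLEKHA8P1 had 2 and 3 against 1 and 1.

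In most families few members had a peak under the rule. Few pseudogenes in general had one, 1.30% of the plain biotype and 19.0% of the transcribed biotype. The low family counts are therefore no trait of these families. The families' counts of one-group loci stand beside 18.9% knockdown-only and 22.6% control-only among all loci. Most lie near these shares or rest on few loci. Of 1989 ribosomal protein pseudogenes, 17 had a locus, 30 loci in all. Of their loci in both lists of a group, 6 of 18 were knockdown-only and 3 of 13 control-only. The lists went by symbol. Copies lying within another gene are in the totals, but peaks there were set aside by the rule, so the counts may miss them. None of 474 copies of genes of the mitochondrial genome (such as MTND and MTCO) had a peak under the rule. The same held for 90 copies of GAPDH, LDH, PGK, PKM or ENO genes. Such a peak was found in 3 of 152 keratin, 2 of 127 HNRNP, 4 of 121 heat shock, 5 of 165 translation factor and 1 of 111 tubulin and actin pseudogenes. Among 453 olfactory receptor pseudogenes 12 had a locus, with 4 of 10 loci knockdown-only, all in the run on chromosome 11, and 1 of 8 control-only. Zinc finger pseudogenes were covered more often, 16 of 88 with 55 loci, of which 4 of 26 were knockdown-only and 12 of 34 control-only. Families of segmental duplications had 32 of 222 with 96 loci, of which 8 of 41 were knockdown-only and 15 of 56 control-only. ZNF767P and ZNF37BP held 9 of the 12 control-only zinc finger loci. With so few loci the shares have wide intervals, 16.3 to 56.3% for the knockdown-only share of ribosomal protein pseudogenes.

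Reads of a pseudogene and of its parent gene can be exchanged in alignment, so parents were set beside them. A parent could be named from the symbol for 248 of the 442 pseudogenes, which gave 179 parents. A pseudogene without a peak means in this paragraph a pseudogene without a peak under the rule. Of the 179 parents, 147 had a peak in any list (82.1%, 95% Wilson interval 75.9 to 87.0%), beside 75.6% of the 2093 parents of pseudogenes without a peak and 53.6% of 20050 protein-coding genes, counting here any summit within the gene. In single lists the share was 78.1% and 76.1% in shMETTL3 and 72.7% and 72.0% in shControl, and for parents of pseudogenes without a peak it was 67.5% and 67.2% in shMETTL3 and 64.3% and 65.0% in shControl, in the same direction. Loci whose parent had a peak were 19.0% knockdown-only and 25.5% control-only, against 17.5% and 22.9% of the other loci in pseudogenes. Copies and parents were also counted side by side, on few loci and without a test of their difference. Over all loci, 22.6% were control-only and 18.9% knockdown-only. The 3 copies of HERC2 had 5 of 12 loci control-only and 0 of 6 knockdown-only, and HERC2 itself 3 of 11 and 0 of 6. The copies of PDE4DIP had 9 of 15 control-only and PDE4DIP 2 of 6. The 9 copies of BMS1 had 6 of 19 control-only and BMS1 1 of 7. The part that exchanged reads have in these values was not tested.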

How the data were processed

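The authors deposited 1 list of peaks per library, so peaks were not called on pooled samples, and the deposited peak names show calls made separately for each strand. Tools listed in the submitters' processing notes are MACS2 2.2.7.1, HISAT2 2.1.0, Bowtie2 2.4.2, SAMtools and Trim Galore 0.6.6, with hg38 as the build and with no role for any of them. Per the labels' protocols an m6A spike-in was added before fragmentation. The use made of the spike-in, of the input libraries and of reads matching several places is not stated there. Folds are a deposited ratio at each peak, and p-values and q-values were deposited as −log10 values, with a smallest −log10 q of 2.00. The deposited score was not used. The peak names of the knockdown lists, as deposited, begin with ko although the labels give a knockdown.

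Summits were placed in gene spans of a RefSeq table of GRCh38.p14, which has neither exons nor strands. Peaks sharing at least 1 bp on the same strand were merged to loci. A locus counted if at least 1 of its peaks met the rule, and 27 loci also held a peak that did not. In all, 87 loci lay in 2 or more pseudogenes. Folds were ranked within a list, and folds set side by side across lists are a description. Where a list held several peaks of a locus, the highest fold was taken, so values of different lists may come from different peaks. A parent was the gene whose symbol remains when a final P with digits is removed. Library values were compared by exact two-sided permutation tests (threshold 0.05), and shares have 95% Wilson intervals. Tests were checked on simulated data. Python 3.11.15, pandas 2.3.3, NumPy 2.4.6 and SciPy 1.17.1 were used. Alternatives were a fold of at least 4, a −log10 q of at least 20, a reciprocal overlap of 50%, lists of equal length, stricter placement rules, parents with peaks left out, and each library left out. Named genes were METTL3, the pseudogenes with most loci, the top 8 loci of each class, those lost or gained with 2 or more loci, and members of each family with most loci, leaving out uncharacterised symbols except among the 3 with most loci. The pseudogenes, the gene lists and the rule were chosen with earlier results of these data known. Same-numbered replicates did not deviate together (r = 0.020 over loci in pseudogenes).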

Additional observations from a re-analysis of the deposited data

How the results depend on the processing

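Read depth is unknown, and a peak missing from a list may lie just under the caller's threshold. Of the alternatives, 123 values kept their direction (differences) or stayed within their interval or 1.5 times the count, 28 moved and 9 reversed. The 123 include differences that the setting could not change, namely those under a reciprocal overlap of 50% and under a replicate block. The cause of the changes was not tested, except that stricter rules leave fewer peaks and leaving out a library needs fewer lists to hold a peak. With a fold of at least 4, the difference in peaks (shMETTL3 minus shControl) reversed to 36, in share to 0.0685 percentage points and in fold rank to -1.05. That setting gave 66 control-only loci and 161 loci in all 4 lists. The knockdown-only share was 28.7%, beside 27.6% of all loci, and the control-only share 25.4%, beside 25.0%. With a −log10 q of at least 20 the peaks differed by -27, the share by 0.0396 and the fold rank by -0.119. There were 95 control-only loci (23.1%, beside 23.3% of all loci), and the width was 27.5 bp above that of protein-coding peaks. With lists of equal length, peaks differed by 3.5 and the share by 0.00815. At 10 kb or more from other genes the difference in peaks shrank to -8.5 and the share differed by 0.0522. This left 66 knockdown-only loci (17.8%, beside 18.9% of all loci) and 82 control-only loci (21.3%, beside 22.6%). In all 4 lists were 267 loci, and 22 pseudogenes were gained. With pseudogenes left out whose parent has a peak, the width against protein-coding peaks reversed to -1.38 bp. Then 55 loci were knockdown-only (17.5%, beside 18.9% of all loci) and 78 control-only (22.9%, beside 22.6%). In all 4 lists were 229 loci, with 18 pseudogenes gained and 23 lost. With the transcribed biotype alone, 23 were gained and 29 lost. Shares of gained and lost among all genes were not computed under the alternatives. A reciprocal overlap of 50% gave a knockdown-only share of 22.5% and a control-only share of 28.1%, beside 24.4% and 28.2% of all loci. With each library left out in turn, knockdown-only loci ranged from 120 to 177 (21.5 to 25.7%), control-only loci from 173 to 243 (28.2 to 31.7%), beside 22.8 to 26.5% and 28.4 to 30.1% of all loci, and gained pseudogenes from 47 to 62. The replicate numbers did not pair the libraries, and with a replicate block the 4 differences between libraries were -52 peaks, -0.00628 percentage points, 2.61 rank points and 10.5 bp, each with an exact p = 0.5, the smallest for 2 pairs. No paired analysis was possible for the counts of loci because they come from no test.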
